A study of Homo sapiens with 6 samples.

Results

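The regions described here are 7375 stretches of chromatin away from gene starts that carried lysine benzoylation (Kbz) after sodium benzoate (SB) and that were marked by lysine acetylation (Kac) both with and without SB. They were chosen by position alone from the SB Kbz peak list. A Kbz peak was taken if it shared at least 1 bp with a control Kac peak and with an SB Kac peak, and no base with the window of 3 kb either side around any GENCODE transcription start site (TSS). The 7375 sites were 30.3% of the 24308 Kbz peaks on chromosomes 1 to 22 and X (Wilson 95% interval 29.8 to 30.9%) and 33.02% of the 22335 Kbz peaks on Kac found in both conditions. They were 84.2% (83.5 to 85.0%) of the 8756 Kbz peaks outside the promoter windows. Presence in the 3 lists and distance from a TSS selected the sites, so these counts describe the selection and were not tested.

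The cells were labelled HepG2, a cell line that derives from a liver tumour, and were either left untreated (control) or given 10 mM SB for 24 h. Chromatin was cut with micrococcal nuclease and pulled down with pan antibodies against Kac or Kbz, so neither the histone nor the modified lysine is resolved. Each of the 6 groups (input, Kac and Kbz, from control and from SB cells) held 1 library, so no difference between conditions has a replicate check and no p-value is given. Per the labels no peaks came from the control Kbz library, and the input libraries were not analysed here. The control Kac, SB Kac and SB Kbz lists held 70326, 63282 and 24308 peaks on the 23 chromosomes used. Read totals are not part of these lists, so depth is unknown and all intervals below cover counting error only.

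The label was checked against Kac within 3 kb of the start sites of marker genes. Of 20 genes for liver products, 9 had a Kac peak there in control and 10 in SB cells, beside 76.8% and 75.9% of all 19970 protein-coding genes. ALB (albumin), APOB (the low-density lipoprotein protein), SERPINA1 (alpha-1 antitrypsin) and the fibrinogen genes FGA, FGB and FGG had no Kac peak in either condition, and AFP (alpha-fetoprotein) had one in SB cells only. Of 10 liver transcription factors, 8 had Kac in both conditions, among them HNF4A, while FOXA2 and NR1H4 had none. Of 14 kidney development factors, 12 had Kac in both conditions, including PAX2, PAX8, LHX1, SIX2 and WT1. Neuronal markers had it at 6 of 12 genes in control and 7 in SB cells, and blood markers at 3 and 4 of 10. Several defining liver markers were thus without the mark in cells labelled HepG2, and the identity of the line was not tested. The methods state that the line was used without further authentication.

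Histone acylation puts an acyl group on lysine and removes its positive charge. Acetyl groups are placed by acetyltransferases such as EP300 at promoters and at enhancers, stretches of open chromatin away from the start site that transcription factors bind and that can act on genes over long distances. Benzoyl groups are larger and aromatic, are fed by benzoyl-CoA made from benzoate, and can be removed by the deacylase SIRT2.

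The 5 sites with the highest Kbz fold enrichment are shown first, as single examples of the strongest distal signal. Fold enrichment is the ratio of reads in a peak to those of its background, as MACS2 gave it. Each line gives the central 300 bases of the peak on the plus strand of hg38, named by its host gene or, between genes, by the nearest protein-coding gene. Capitals mark the letters of any of 17 short motifs found on either strand.
SLC32A1 site, chr20:38731381-38731680: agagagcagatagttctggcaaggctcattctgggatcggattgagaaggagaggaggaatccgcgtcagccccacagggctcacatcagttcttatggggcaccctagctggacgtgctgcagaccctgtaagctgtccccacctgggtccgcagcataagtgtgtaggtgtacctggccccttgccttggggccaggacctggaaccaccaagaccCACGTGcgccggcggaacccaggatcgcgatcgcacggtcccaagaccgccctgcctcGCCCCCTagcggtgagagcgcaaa
BAHCC1 site, chr17:81472107-81472406: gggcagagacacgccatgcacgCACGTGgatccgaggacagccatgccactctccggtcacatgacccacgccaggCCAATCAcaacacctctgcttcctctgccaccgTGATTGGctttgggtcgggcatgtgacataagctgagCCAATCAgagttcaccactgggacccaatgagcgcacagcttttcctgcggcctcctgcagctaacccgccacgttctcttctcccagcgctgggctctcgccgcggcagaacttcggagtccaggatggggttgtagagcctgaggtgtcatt
NINJ2 site, chr12:575960-576259: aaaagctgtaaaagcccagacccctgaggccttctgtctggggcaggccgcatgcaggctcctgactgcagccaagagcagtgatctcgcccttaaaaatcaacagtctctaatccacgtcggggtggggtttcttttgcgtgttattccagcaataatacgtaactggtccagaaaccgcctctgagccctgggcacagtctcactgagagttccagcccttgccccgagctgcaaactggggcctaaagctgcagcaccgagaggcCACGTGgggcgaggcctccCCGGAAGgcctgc
KIRREL3 site, chr11:126480488-126480787: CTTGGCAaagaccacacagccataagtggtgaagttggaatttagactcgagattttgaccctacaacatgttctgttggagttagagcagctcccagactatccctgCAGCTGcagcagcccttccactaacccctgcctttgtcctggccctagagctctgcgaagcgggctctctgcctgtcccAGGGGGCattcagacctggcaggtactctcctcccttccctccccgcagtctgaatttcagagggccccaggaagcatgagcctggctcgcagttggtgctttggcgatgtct
CACNG5 site, chr17:66906444-66906743: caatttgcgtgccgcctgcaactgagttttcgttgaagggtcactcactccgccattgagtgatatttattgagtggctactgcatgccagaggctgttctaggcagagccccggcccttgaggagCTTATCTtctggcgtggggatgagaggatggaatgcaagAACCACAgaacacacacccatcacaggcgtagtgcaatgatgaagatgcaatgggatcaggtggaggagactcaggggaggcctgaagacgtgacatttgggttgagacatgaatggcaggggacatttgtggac
The motif letters searched were TGANTCA for AP-1, TGACGTCA for the cAMP response element, ACATTCC for TEAD, CCGGAAG for ETS, TGTGGTT for RUNX, AGATAAG for GATA factors, TGTTTAC for forkhead factors, CAAAGTCCA for HNF4, TTAATNATT for HNF1, ACAATGG for SOX, CTTGGCA for nuclear factor I, CACGTG for the E-box of MYC and its relatives, CAGCTG for the other E-box, GGGCGGG for KLF and SP factors, CCAATCA for NF-Y, TTGCGCAA for C/EBP and AGGGGGC for the CTCF core. No one of them contains another, but matches of different motifs can share bases. A match describes the letters only and does not show that a factor was bound.

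The SLC32A1 site (chr20:38731016-38732045, 1030 bp) had the highest Kbz fold of all, 12.1, with a Kac fold of 6.44 in control and 7.83 in SB cells. It was intergenic, 6530 bp from the start of SLC32A1, the vesicular transporter of the neurotransmitter GABA, and its sequence held 1 CACGTG and 1 CTCF core match. The BAHCC1 site (chr17:81470856-81473657, 2802 bp) had a Kbz fold of 11.9 on Kac of 4.15 and 5.30, and held 1 CACGTG and 3 CCAATCA matches. The intronic NINJ2 site (chr12:575171-577049, 1879 bp) had a Kbz fold of 11.8, Kac of 6.46 and 7.197, and 1 match each of CACGTG and CCGGAAG. The remaining pair lay in an intron of KIRREL3, a cell adhesion gene (chr11:126480278-126480997, Kbz fold 11.3), and 28992 bp from CACNG5, a calcium channel subunit gene (chr17:66906265-66906923, Kbz fold 11.3). All 5 were without an AP-1 match in the 300 bases, 3 of them held CACGTG, and their GC content of 52.7% to 62.0% was above the median of the sites. Over all 7375 sites 15.1% held an AP-1 match and 9.65% held CACGTG. Most sites were thus without AP-1, and its absence from these 5 does not set them apart. In 4 of the 5 the Kac peak under the site ranked above 98% of its list in both conditions, and the BAHCC1 site lay on a Kac peak that reached a promoter window in SB cells and ranked lower, at 82.0 and 91.7.

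Distal Kbz sites were short and weak beside Kbz at promoters. Their median length was 765 bp (747 to 784) with a range of 280 to 7118 bp, and 1432 bp (1416 to 1448) for the 14960 promoter Kbz peaks on Kac in both conditions. Any base in a promoter window made a peak a promoter peak, so the rule itself favours longer peaks in that class. The median Kbz fold of the distal sites was 3.51 (3.49 to 3.53, range 2.19 to 12.1), against 4.33 (4.30 to 4.35) at promoters. Ranked within the Kbz list, the median site stood at percentile 35.9 and the median promoter peak at 61.2. The top decile of the list took 5.42% (4.93 to 5.96%) of the distal sites and 13.5% (13.0 to 14.1%) of the promoter peaks. The 1381 distal Kbz peaks without Kac in both conditions were weaker still, with a median fold of 2.98 and a median length of 476 bp. Of the 7375 sites 85.9% had a q-value of at most 0.01.

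**Figure D1:**
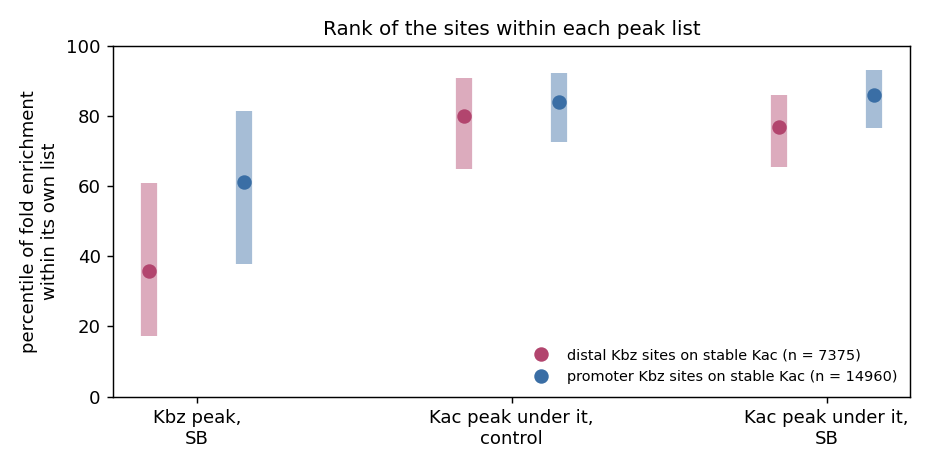
Percentile of fold enrichment within its own peak list (vertical axis, 0 to 100) for distal and promoter Kbz sites on stable Kac, for the Kbz peak and for the Kac peak under it in control and SB cells. Points are medians and bars the middle quartiles over sites, from 1 library per list. The distal median stands at 35.9 in the Kbz list, against 61.2 at promoters, and lies above 76 in both Kac lists.

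The acetylation under the sites ranked high in both lists, though the rule itself asked for a Kac peak in each. Distal SB Kac peaks that also had Kac in control stood at a median SB percentile of 76.1 with Kbz. Those without Kbz stood at 40.3. The median Kac fold under a site was 4.04 in control and 3.94 in SB cells, which is percentile 79.95 (79.3 to 80.7) of the control list and 76.8 (76.3 to 77.2) of the SB list. The percentile in SB minus that in control had a median of -2.06 (-2.40 to -1.79), and 42.5% of the sites ranked higher in SB than in control. Under promoter Kbz peaks the same difference had a median of 1.94 (1.79 to 2.12), from 83.9 in control to 85.9 in SB cells. The SB list is shorter, which by itself lowers the percentile of a peak that keeps its place from the top. With ranks counted from the top of each list, a comparison added after the values were seen, the difference was -0.42 percentile points (-0.72 to -0.09) for distal sites and 3.45 (3.23 to 3.66) for promoter Kbz peaks, and 48.4% of the distal sites ranked higher in SB. Depth of the lists is unknown, so these are ranks and not amounts of Kac. Most sites lay well inside the acetylated stretch: 64.7% were wholly inside a Kac peak in both conditions, and 2.81% and 3.19% were covered over less than 50% of their length by control and SB Kac. A site covered a median of 41.2% of its SB Kac peak. The Kac peak under a site had a median length of 2244 bp in control and 1954 bp in SB cells, with a median SB over control ratio of 0.919 (0.910 to 0.930). For 87.0% of the sites the Kac peak reached no promoter window in either condition.

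Single sites moved far in Kac rank. The largest rise was at a site in HNRNPA2B1, an RNA-binding protein gene (chr7:26195903-26196559), from percentile 8.20 to 96.7. There the SB Kac peak ran on into a promoter window while the control peak did not, so the ranks belong to stretches of different length. A site in an intron of WIPF1, an actin regulator (chr2:174593794-174594134), rose from 15.0 to 95.6, and a site 5415 bp from MRPL19, a mitochondrial ribosomal protein gene (chr2:75640708-75641368), rose from 13.8 to 92.1. Both had Kac peaks that reached no promoter window in either condition. The largest fall was at a site 18910 bp from PPP1R3C, a glycogen-targeting subunit of protein phosphatase 1 (chr10:91613871-91614161), from 94.9 to 6.25. The other falls were at a site in an intron of COL5A1, a collagen gene (chr9:134703212-134703491), from 88.1 to 5.10, and at one 3692 bp from WDSUB1 (chr2:159290395-159291024), from 91.9 to 9.22. All of these 3 lay on control Kac peaks longer than the SB ones, and their Kbz folds were low, between 2.32 and 2.84. At the WDSUB1 site the control Kac peak reached a promoter window while the SB peak did not.

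Kbz on distal acetylated sites followed the rank of Kac. Of 23211 distal SB Kac peaks that also had Kac in control, 6462 shared bases with a Kbz peak, which is 27.8% (27.3 to 28.4%), against 64.3% (63.6 to 64.9%) of 22691 such Kac peaks that reached a promoter window. The distal share depended on the peaks admitted: it was 15.5% when an overlap of at least 50% was asked, 45.4% with −log10 q of at least 5 and 69.7% among the 15000 strongest peaks per list. In the lowest decile of SB Kac fold 2.52% of the distal peaks had Kbz, in the seventh 32.7%, and in the highest 97.4% (96.3 to 98.2%). At promoters the same deciles gave 2.83%, 51.4% and 99.8%. The promoter share was above the distal share in 10 of 10 deciles, and the intervals did not overlap in 7 of them. Promoter Kac peaks were longer than distal ones in 9 of 10 deciles, and distal Kac peaks with Kbz were longer than those without in 9 of 10 (median over all deciles 1699 and 1012 bp). Counted on the central 300 bp of each Kac peak alone, a setting added after the values were seen, Kbz was on 20.7% of distal and 51.5% of promoter Kac peaks, and the promoter share was higher in 9 of 10 deciles, with separate intervals in 6. The Kac fold and the Kbz fold come from the same treated cells. Across the 7375 sites the Spearman correlation of Kbz fold was 0.608 with SB Kac fold and 0.414 with control Kac fold, given as a description without a test, since the points share genome and cells.

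**Figure D2:**
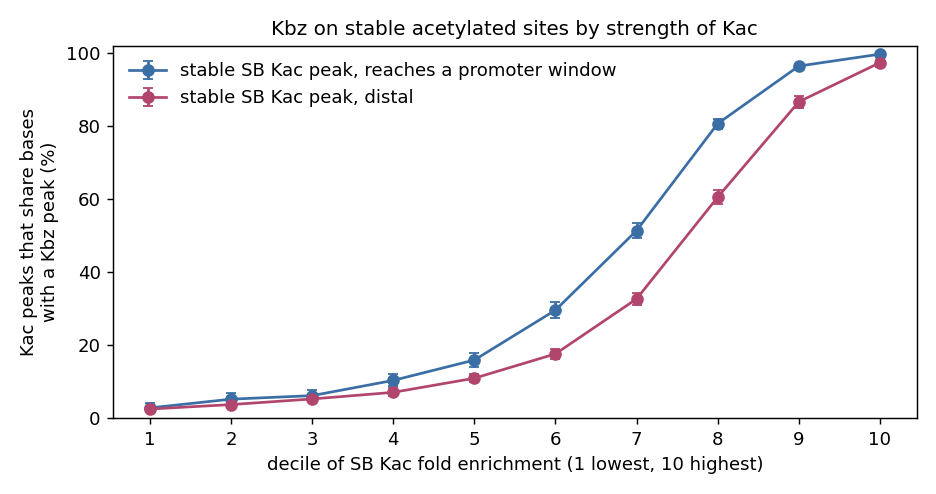
Share of SB Kac peaks with Kac also in control that share bases with a Kbz peak (vertical axis, percent), by decile of SB Kac fold enrichment (horizontal axis), for distal peaks and for peaks that reach a promoter window. Bars are Wilson 95% intervals. Both curves climb from under 3% to over 97%, with the promoter curve above the distal one in each decile.

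The sites lay between genes more often than acetylated sites without Kbz. Of the 7375 sites 47.5% (46.4 to 48.6%) were intergenic, 43.8% (42.7 to 44.96%) intronic and 8.68% (8.06 to 9.34%) touched an exon. Of 16749 distal Kac peaks without Kbz 36.0% (35.3 to 36.7%) were intergenic, 54.6% intronic and 9.4% (8.98 to 9.87%) touched an exon. With Kac peaks as the unit on both sides, the 6462 distal Kac peaks with Kbz were 48.2% intergenic and 39.3% intronic. Of these, 12.5% (11.7 to 13.35%) touched an exon, so the direction of the exon share depended on the unit. The intergenic share of distal Kac peaks was higher with Kbz than without it in 9 of 10 deciles of Kac fold, the exception being the highest, where 27 peaks were without Kbz. Of 1983 intronic sites inside a single canonical protein-coding transcript, 33.9% (31.8 to 36.0%) lay in the first intron. The median distance was 11791 bp to any TSS and 21750 bp to a protein-coding one, and 26.4%, 72.8% and 85.8% of the sites were within 10, 50 and 100 kb of a protein-coding TSS. The first-intron share and these distances stand without those of other distal Kac peaks, so they describe the sites only. The farthest site from any TSS, at 473280 bp, was on chromosome 18 (chr18:40866363-40868039), with a Kbz fold of 2.61 and Kac percentiles of 96.3 in control and 69.2 in SB cells. The next were a pair on chromosome 1 (chr1:104664747-104665334 and chr1:104671883-104672525), 367031 and 359840 bp from a TSS, with Kbz folds of 3.20 and 3.95.

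At the limit of the rule, sites just inside lay 3002 bp from the start of ARHGEF17 and 3006 bp from that of WHSC1L2P, each with a Kbz fold of 3.09. The 3 Kbz peaks just outside lay 2999, 2999 and 2997 bp from the start of LRRC43, SLC52A1 and OTUB1, with folds of 3.29, 4.31 and 2.77. The values on either side overlapped.

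The sequence of the sites was intermediate between promoters and other distal acetylated sites. The median GC content of the central 300 bases was 50.3% (50.3 to 50.7%), against 61.3% at promoter Kbz peaks, 58.7% in 34961 RefSeq promoters and 46.0% (46.0 to 46.3%) in distal Kac peaks without Kbz. Windows rich in CpG (GC of at least 50% and an observed over expected CpG ratio of at least 0.6) made up 9.42% (8.78 to 10.1%) of the sites, 55.5% of promoter Kbz peaks and 1.28% (1.12 to 1.47%) of distal Kac peaks without Kbz. When the window was set at the centre of the Kac peak for both, a choice made after the values were seen, distal Kac with Kbz had a median GC of 49.3% and 7.57% of CpG-rich windows. The median GC was higher with Kbz than without it in 10 of 10 deciles of Kac fold. Stronger sites were richer in GC: from the lowest to the highest quintile of Kbz fold the median GC went from 47.0% to 55.3%, the CpG-rich share from 2.71% to 19.5% and the intergenic share from 42.6% to 53.9%. GC content can also shift recovery in ChIP-seq, and its part in these differences was not tested.

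Of the 17 motifs, 6 were matched more often in the sites than in distal Kac peaks without Kbz, 3 less often and 8 with overlapping intervals. In this comparison the windows of the sites lay at the Kbz peak centre and those of the other class at the Kac peak centre. AP-1, bound by FOS and JUN dimers and common at enhancers, was matched in 15.1% (14.3 to 15.9%) of the sites and in 14.7% (14.2 to 15.3%) of distal Kac peaks without Kbz, against 6.34% of promoter Kbz peaks and 7.68% of RefSeq promoters. RUNX (5.64%, against 5.82% without Kbz and 3.11% at promoter Kbz), TEAD (4.95%, 4.63% and 2.71%) and forkhead (4.53%, 4.85% and 2.53%) were likewise within overlapping intervals between the distal classes and lower at promoters. GATA letters were less frequent in the sites than without Kbz, at 4.49% (4.04 to 4.98%) against 5.37% (5.04 to 5.72%), as were those of nuclear factor I, at 4.98% (4.50 to 5.50%) against 5.89% (5.55 to 6.26%), and of HNF1, at 1.02% against 1.88% (1.68 to 2.09%). KLF and SP letters, common at promoters, were in 8.29% (7.68 to 8.94%) of the sites, 3.31% of distal Kac peaks without Kbz and 30.2% of promoter Kbz peaks, and ETS letters in 3.06%, 1.24% and 10.0%. The E-box CACGTG, bound by MYC, MAX, USF and TFE factors, was in 9.65% (9.001 to 10.3%) of the sites. The interval overlapped that of promoter Kbz peaks, 8.76% (8.32 to 9.22%), and lay above the 5.06% (4.74 to 5.40%) of distal Kac peaks without Kbz. The CTCF core (9.07% against 5.92%), NF-Y (3.23% against 2.59%) and the cAMP response element (0.624% against 0.245%) were also more frequent in the sites than in distal Kac peaks without Kbz. HNF4 letters were in 0.407% of the sites, 0.364% of distal Kac peaks without Kbz and 0.386% of RefSeq promoters. A comparison with windows at the Kac peak centre for both was added after the values were seen. There the intervals overlapped for GATA (4.57% with Kbz, 5.37% without), nuclear factor I (5.37%, 5.89%) and HNF1 (1.53%, 1.88%). They also overlapped for NF-Y (2.55%, 2.59%) and the cAMP response element (0.418%, 0.245%). AP-1 was lower with Kbz, at 13.1% (12.3 to 13.9%) against 14.7% (14.2 to 15.3%). KLF and SP, ETS, CACGTG and CTCF core letters stayed higher with Kbz.

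Because CACGTG and the promoter motifs contain CpG or G runs, the shares were also taken within bands of GC content, a choice made after the values were seen. In 5 of 5 bands of 10 percentage points between 30 and 80% GC the CACGTG share was higher in the sites than in distal Kac peaks without Kbz, with separate intervals in 4. Between 40 and 50% GC it was 8.43% (7.40 to 9.58%) against 4.72% (4.24 to 5.27%). At the centre of the Kac peak the share with Kbz was also higher in 5 of 5 bands, with separate intervals in 1, and over all windows it was 5.06% without Kbz and 7.37% (6.75 to 8.03%). KLF and SP letters were higher in 3 of 5 bands and ETS letters in 5 of 5, with separate intervals in 2 each. For AP-1 the intervals overlapped in every band.

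**Figure D3:**
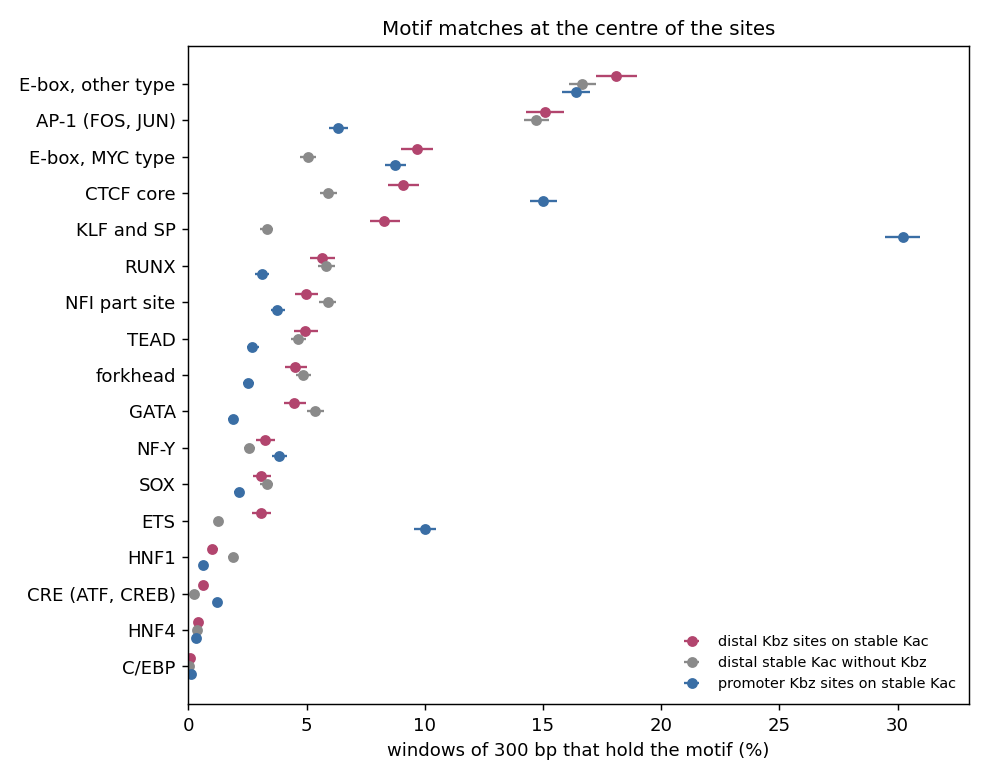
Share of 300 bp windows that hold each of 17 motifs (horizontal axis, percent) in distal Kbz sites on stable Kac, distal stable Kac peaks without Kbz and promoter Kbz sites. Points are shares and bars Wilson 95% intervals. Windows lie at the centre of the Kbz peak, and for Kac peaks without Kbz at the centre of the Kac peak. AP-1 is near 15% in both distal classes and 6.34% at promoters, while KLF and SP letters are at 8.29% in the sites and 30.2% at promoters.

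The motifs also went with different Kac ranks, again looked at after the values were seen. The 1112 sites with an AP-1 match stood at a median Kac percentile of 83.7 (82.3 to 85.1) in control, above the 79.2 (78.7 to 79.9) of the 6263 sites without one. In SB cells the medians were 76.9 (76.2 to 77.9) and 76.8 (76.2 to 77.3). The difference of SB minus control was -4.00 (-4.92 to -2.91) with AP-1 and -1.79 (-2.07 to -1.45) without, and with ranks counted from the top of each list -2.35 (-3.14 to -1.36) with AP-1 and -0.11 (-0.43 to 0.24) without. Within quintiles of GC content the control percentile was higher with AP-1 in 5 of 5 quintiles, with separate intervals in 3, and the difference was lower with AP-1 in 5 of 5, with separate intervals in 1. In SB cells no quintile had separate intervals. Kbz fold was 3.44 (3.37 to 3.50) with AP-1 and 3.52 (3.50 to 3.55) without. For the 712 sites with CACGTG the difference was 0.47 (-0.81 to 1.72), against -2.33 (-2.71 to -1.98) without, and higher in 5 of 5 quintiles of GC with separate intervals in 2. Counted from the top it was 1.99 (0.58 to 3.597) against -0.66 (-0.99 to -0.33), and for the 611 sites with KLF and SP letters 0.99 (-0.28 to 2.30) against -0.57 (-0.91 to -0.19). Within quintiles of GC, the difference counted from the top was higher with CACGTG in 5 of 5 and lower with AP-1 in 5 of 5. The intervals were separate in 1 quintile for each motif. Among the 17 motifs the intervals with and without the motif on this scale were separate for AP-1 (lower) and CACGTG (higher) and overlapped for 15. Kbz fold was 3.76 (3.67 to 3.86) with CACGTG against 3.49 without, and 3.99 (3.84 to 4.10) with KLF and SP letters against 3.48.

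**Figure D4:**
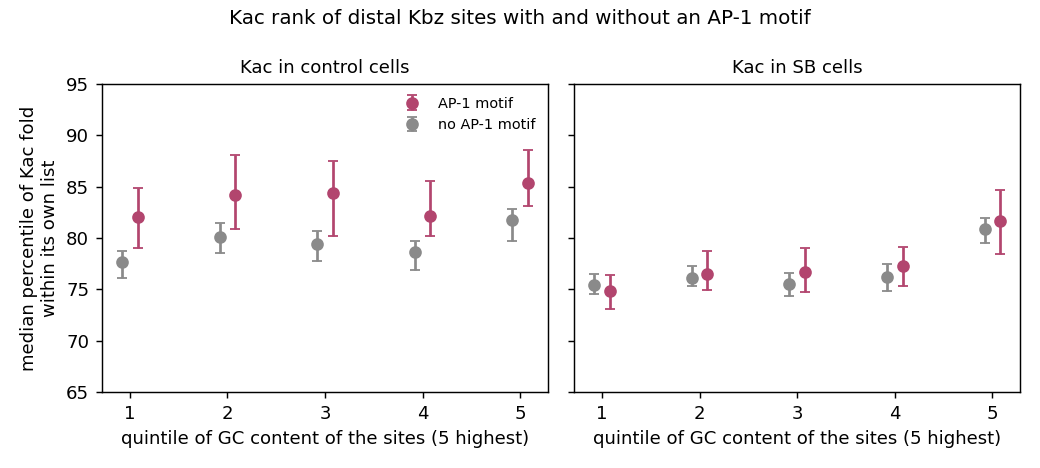
Median percentile of Kac fold within its own list (vertical axis, cut to 65 to 95) for distal Kbz sites with and without an AP-1 motif, by quintile of GC content (horizontal axis), in control cells on the left and SB cells on the right. Bars are 95% order-statistic intervals over sites of 1 library. Sites with AP-1 are higher in 5 of 5 quintiles in control, and the intervals overlap in each quintile in SB cells.

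Most sites stood alone. When sites within 10 kb of each other were joined, 5543 (75.2%) had no neighbour, and 18 of 6341 groups held 5 or more. The pair of largest groups held 7 sites each. The group on chromosome 6 (chr6:28735266-28778981) had Kbz folds from 3.04 to 5.04 on 5 SB Kac peaks, with 4 of its sites nearest to TRIM27, a ubiquitin ligase gene, and all 7 at least 119054 bp from a protein-coding TSS. The group on chromosome 8 (chr8:37358012-37394814) had folds from 2.57 to 4.93 on 1 SB Kac peak of 40630 bp, at least 300968 bp from ZNF703, a transcriptional repressor gene. Groups of 6 sites lay at SMAD6, an inhibitor of BMP signalling (chr15:66673138-66708051, folds 2.44 to 6.33), near MCHR1, a receptor gene (chr22:40710795-40740840, folds 2.78 to 6.80), and inside SEMA3C, a secreted guidance factor (chr7:80756640-80783966, folds 2.72 to 3.33). The Kac peak with most sites was 75632 bp long at ADAM12, a metalloprotease gene, and held 10. The 3 longest sites were single stretches of 7118 bp nearest to KCNU1 (chr8:37142299-37149416, Kbz fold 4.86), 6865 bp in SAXO1 (chr9:18975699-18982563, fold 4.46) and 6635 bp in ZNF423, a zinc finger factor gene (chr16:49696335-49702969, fold 5.43), each on Kac above percentile 95 in both conditions.

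**Figure D5:**
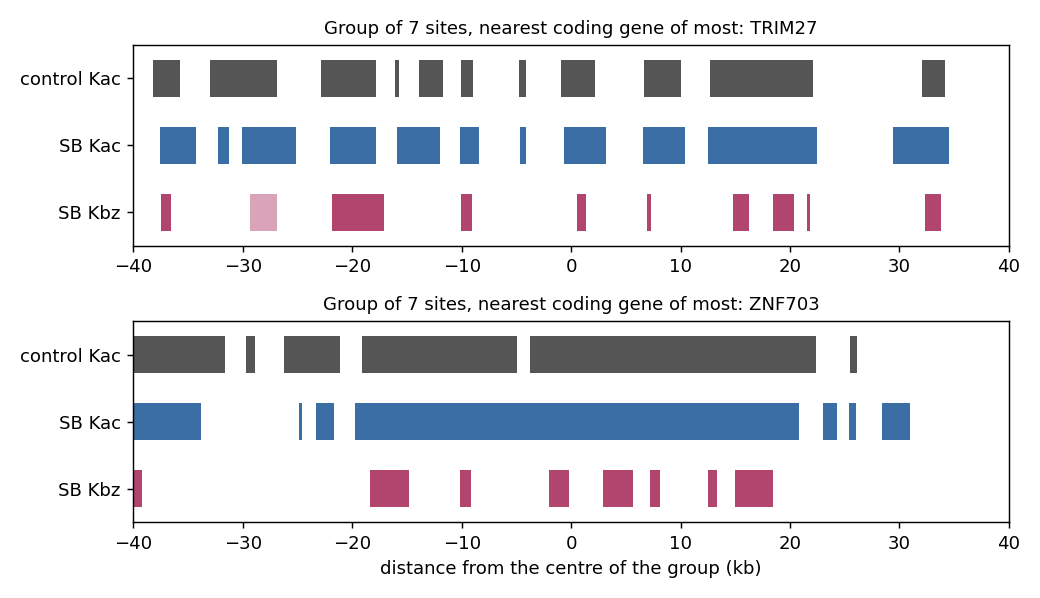
Peaks of the 3 lists around the 2 groups with most sites, as distance in kb from the centre of each group (horizontal axis); dark red bars are sites of the kind described here and the pale bar is a Kbz peak that is not. At TRIM27 the 7 sites of the group lie on 5 SB Kac peaks, and at ZNF703 the 7 sites lie on a single SB Kac peak.

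Sites were most dense on chromosome 19, with 5.31 per Mb, and on chromosome 17, with 5.09. As a share of Kbz peaks on stable Kac, however, distal sites were lowest on chromosome 19, at 22.6% (20.4 to 24.8%), and highest on chromosome 10, at 42.4% (39.6 to 45.3%), followed by chromosomes 13 and 6 at 39.6% each. Distal Kac peaks without Kbz went the same way. Chromosomes 19, 10, 13 and 6 held 1.99%, 7.31%, 3.385% and 7.65% of them, against 7.14%, 4.49%, 1.73% and 5.515% of promoter Kbz peaks. The pattern was thus not particular to distal sites with Kbz.

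Assigned to the protein-coding gene with the nearest TSS, the sites fell on 4243 of 19970 genes, or 21.2%. Of the genes with Kbz at their promoter 23.7% had a site, and of those without 16.7%. Genes with a site had more room to collect one: the stretch of genome nearest to them had a median of 124.6 kb, against 44.1 kb for the other genes. The most sites fell to ZNF608 (21), LRMDA (19), ZNF703 (17), NR2F2 (15), PCDH9 (15), BCOR (13), SEMA3C (13), SMAD6 (13), ADAM12 (12) and BMP7 (12), with ZMIZ1 and ZNF184 also at 12. In the same order, distal stable Kac peaks without Kbz nearest to these genes numbered 63, 41, 13, 32, 58, 14, 21, 19, 8, 10, 28 and 5. By way of background, NR2F2 is an orphan nuclear receptor, BCOR a corepressor in a polycomb complex, and BMP7 a secreted growth factor. Their stretches were long, from 209.7 kb at ZNF184 to 3599.8 kb at PCDH9. Per Mb, ZNF184 had 57.2 sites, SMAD6 51.3 and ZNF703 42.1, against 4.17 at PCDH9. At BCOR the Kbz fold ran from 2.79 to 8.32, while at SEMA3C it stayed between 2.57 and 3.50.

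Gene lists were counted beside the 21.2% of all genes. Immediate early genes, switched on within minutes by growth factors and stress, had a site nearest to 9 of 15. DUSP1, a phosphatase that turns off MAP kinases, had 6 intergenic sites 18007 to 63549 bp away with Kbz folds from 2.57 to 5.31. IER2 had 4 (folds 2.87 to 6.80), FOSL2 3 (2.95 to 5.06), and FOS 2 at 23137 and 27195 bp with folds of 3.87 and 6.44. JUN, JUND, EGR3 and NR4A1 had 1 each and ATF3 had 2. Kidney development factors had a site at 8 of 14, with 5 at PAX2 (folds 2.47 to 4.78), 3 each at LHX1 and FOXD1, 2 each at SIX2, GATA3 and EMX2, and 1 each at EYA1 and WT1. Liver transcription factors had a site at 3 of 10, with 3 at CEBPA (folds 3.09, 4.15 and 7.37) and 2 each at FOXA1 and NR5A2. Liver products had a site at 2 of 20, AHSG (fold 4.19) and AMBP (fold 2.83). The median stretch nearest to a gene was 66.8 kb for immediate early genes, 224.1 kb for kidney development factors, 94.3 kb for liver transcription factors and 30.5 kb for liver products, so the lists had unequal room.

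Counts of the other lists stood between 22.9% and 33.3% of their genes, beside 21.2% of all genes. These lists also had unequal room, and the shares were not adjusted for it. The median stretch was 173.2 kb for insulin and IGF genes, 170 kb for YAP and TEAD targets and 128.3 kb for neuronal markers. It was 94.45 kb for glycerophospholipid genes, 66.5 kb for genes of acyl marks and 45.6 kb for blood markers. Cytosolic ribosomal protein genes had 15.8 kb and all protein-coding genes 55.15 kb. Neuronal markers had a site at 3 of 12 genes and blood markers at 3 of 10, among them CD34 with folds of 4.31 and 8.93. YAP and TEAD targets had one at 4 of 14, including 2 sites at CCN2, a matrix protein gene (folds 3.81 and 4.00). Glycerophospholipid genes had one at 9 of 33, with 2 each at GPD2 and ETNK1. None of PLA2G4C, ACHE, PLA2G15 and PTGS2, which the study followed up, had a site nearest to it, nor a distal stable Kac peak without Kbz, and all 4 had Kbz at the promoter. Insulin and IGF genes had one at 5 of 15, with 6 sites at IGF1R (folds 2.92 to 5.03) and 3 at INSR, the insulin receptor (3.89, 6.37 and 6.50). Distal stable Kac peaks without Kbz numbered 20 at IGF1R and 3 at INSR. Writers, erasers and readers of acyl marks had one at 8 of 35, or 22.9%, near the 21.2% of all genes. These were DPF2 (fold 6.64), HDAC4 (6.57), EP300 (5.68), SIRT5 (4.20), HDAC6 (3.69), KAT6B (2.99), MLLT3 (2.76) and HDAC11 with 3. The sites of EP300 and HDAC4 were intergenic, 42808 and 95759 bp away. Distal stable Kac peaks without Kbz numbered 18 at KAT6B, 17 at MLLT3, 8 at HDAC4, 2 at HDAC11 and 1 at EP300. DPF2, SIRT5 and HDAC6 had 0. Cytosolic ribosomal protein genes had one at 6 of 25, the strongest at RPS3 (fold 7.59).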

How the data were processed

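Single-end reads of 50 bp from 6 ChIP-seq libraries were aligned to hg38 and peaks were called per library by the authors. The submitters' processing notes name Bowtie2 2.2.6, SAMtools 0.1.19 and MACS2 2.1.1. The deposited lists are broad peaks, and the broad setting and background track are not given in the sources used here. The deposited fold is a linear ratio over background, and the authors' −log10 p and −log10 q are averages over the peak. The deposited display score was not used. The stated FDR was 0.01, but the lowest −log10 q of a site was 1.33. Depth cannot be read from peak lists.

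From these files, overlaps (at least 1 bp), GENCODE 44 places, and 300 bp hg38 windows at peak centres were computed with Python 3.11.15, pandas 2.3.3, SciPy 1.17.1 and pysam 0.24.0. Figures used matplotlib 3.10.9. Peaks on chromosomes 1 to 22 and X were used, without the 3 control Kac peaks outside them. A site was called exonic if any base lay in an exon, otherwise intronic or intergenic. Percentiles are ranks of fold within a list. A site on several Kac peaks took the strongest. Shares carry Wilson and medians order-statistic 95% intervals. RefSeq promoters (GRCh38.p14) reach from 250 bases before to 50 after the start. The overlap and motif steps were checked on planted data and with bedtools 2.31.1.

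The rule named the 5 sites of highest Kbz fold, the 3 longest, the 3 farthest from a TSS, the 3 largest rises and falls of Kac percentile, the 3 on each side of the 3 kb limit, the 5 largest groups, their nearest or host genes, the 10 genes with most sites, genes of 11 lists (203 genes), and 4 genes the study followed up. Some items that the rule names are not reported here. The sites, lists and rules were chosen with earlier results of these data known. Alternatives were 2 q limits, the 15000 strongest peaks per list, 50% overlap, a 1 kb window, protein-coding TSS only and peak midpoints.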

Additional observations from a re-analysis of the deposited data

How the results depend on the processing

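Each of 7 results was recomputed under other settings, 51 values in all, and 19 moved by less than their interval or, for the count, by less than 1.5 times. With −log10 q of at least 2, distal sites were 28.9% of Kbz peaks, 42.6% were intronic, 31.3% of distal stable Kac peaks had Kbz, the median GC was 51% and 19.1% of genes had a site. With at least 5 these were 17.6%, 36.7%, 45.4%, 53.3% and 8.29%, with 2077 sites. With the 15000 strongest peaks per list there were 2243 sites, 14.95% of Kbz peaks, 36.4% intronic, 69.7% of distal stable Kac peaks with Kbz, a GC of 52.7%, AP-1 letters in 16.1% and 8.72% of genes. Fewer peaks enter under these 3 limits by construction.

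With an overlap of at least 50% distal sites were 28.8% of Kbz peaks, 15.5% of distal stable Kac peaks had Kbz and 20.4% of genes had a site. With a promoter window of 1 kb these sites were 36.8% of Kbz peaks, the GC was 51% and 25.1% of genes had a site. With start sites of protein-coding genes only they were 38.6% of Kbz peaks, 38.7% were intronic, 30.6% of distal stable Kac peaks had Kbz, the GC was 51.3% and 25.01% of genes had a site. With peak midpoints they were 31.75% of Kbz peaks, 28.9% of distal stable Kac peaks had Kbz and 22.03% of genes had a site.

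No paired analysis was possible because there was 1 library for every group, and a library left out would leave no group. Low depth and a missing mark cannot be told apart in peak lists.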
